A study of Mus musculus with 4 samples.

Results

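In the variant lists of 2 mouse cancer cell lines, 9 records on the mitochondrial chromosome named a mitochondrial tRNA gene as the affected gene. They were chosen by 2 criteria, a chromosome given as MT and an annotated gene symbol of mt-Ti, mt-Tl1, mt-Tq or mt-Tt, the tRNA genes for isoleucine, leucine (UUR), glutamine and threonine. LM8 had 4 of these records among 5445 in its list and MBT2 had 5 among 6361, and they covered 7 sites, 2 of them in both lists. Neither list held any other mitochondrial record. None of the 7 sites lay inside a tRNA gene. Every record was annotated as upstream of the tRNA named, at a distance of 86 to 2236 bases, and the site itself fell in a ribosomal RNA gene or a protein gene. The group is therefore described here as mitochondrial variants annotated upstream of tRNA genes, and the position of a base within a tRNA could not be examined.

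The bladder cancer line MBT2, whose titles carry the clone label 63, was grown in RPMI-1640 medium. The osteosarcoma line LM8 was grown in MEM medium with 24 mM HEPES. Both are syngeneic with C3H/HeN mice, were grown with 10% serum and penicillin and streptomycin, and received no treatment. From each line 2 strand-specific poly(A) RNA libraries were sequenced, with 75 bases from both ends. The titles of a line's duplicates differ only in the replicate number, so the duplicates may be technical. The p-values below compare read counts and measure no spread between cultures. The lists hold variants and no expression levels, and a matched normal sample was not used. Tissue identity could therefore not be checked against marker levels.

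The mitochondrial genome is copied into long RNAs from both of its strands, and most of its tRNA genes sit between the ribosomal RNA and protein genes like punctuation. RNase P and the enzyme ELAC2 cut the tRNAs out and so release the messenger and ribosomal RNAs beside them, which then receive short poly(A) tails. Poly(A) libraries therefore hold mitochondrial messenger RNA and some ribosomal RNA, while finished tRNAs are short, lack such a tail and carry many modified bases. The mitochondrial genome encodes 22 tRNAs, 2 ribosomal RNAs and 13 proteins. Most of them are read from the plus strand of the reference, and mt-Nd6 is the one messenger RNA read from the minus strand.

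The sequences around the 7 sites are shown because they separate the sites into 2 kinds. Each is the plus strand, 5′ to 3′, taken from the mouse GENCODE M21 transcript of the host gene, and the capitals mark the run in which a base was inserted or, at position 1775, the base that was substituted. Positions are those of chromosome MT in GRCm39, counted from 1, and an insertion is given by the base before it.
MT 1487, mt-Rnr2: ttaaacttgctAAAAAAAcaacaaaat
MT 1775, mt-Rnr2: ctccaggcatacgcGtataacaactcgga
MT 3619, mt-Nd1: catcttctatgAAAAAActttctacc
MT 4313, mt-Nd2: tcttacatgacAAAAAAttgctcccc
MT 13052, mt-Nd5: aaccgcgttttCCCCCCCtaatctcca
MT 13416, mt-Nd5: gatctggttagAAAAAAccatcccaa
MT 13900, opposite mt-Nd6: ctaaataaattAAAAAAActattaaac
At 6 of the sites a single base was added to a run of 6 or 7 identical bases. The added base was A at 5 of them and C at the site in mt-Nd5 with 7 C bases. The remaining site was the only substitution, G1775C (reference base, position, alternative base). It lies outside any such run.

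The substitution was in mt-Rnr2, the gene of the 16S ribosomal RNA of the large mitochondrial ribosomal subunit. Its position is base 682 of the 1582-base transcript (ENSMUST00000082390), 901 bases before mt-Tl1, which follows the ribosomal RNA gene directly. It was listed in LM8 only. The alternative base was in 172 of 1531 reads in LM8 library 1 (11.2%) and in 196 of 1600 reads in library 2 (12.25%), together 11.8% of 3131 reads (exact binomial 95% interval 10.6 to 12.9, counting error only, as for all intervals below). The duplicates differed by less than counting error. They gave a ratio of 1.09 (Fisher's exact test, unadjusted p = 0.405, Benjamini-Hochberg adjusted p = 1 over all 5445 LM8 records). Reads aligned in both directions carried it, at 12.8% of forward and 10.7% of reverse reads. The median base quality was 34 for reads with the alternative base and 33 for the others. This was the highest alternative share among the 9 records. The others were between 1.26% and 3.19%.

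The share at this site was also above the median of deeply read LM8 substitutions. Of 50 LM8 substitutions with at least 1000 reads, whose median share was 2.28%, 16 were at or above it, counting the site itself. Changes between G and C, in either direction, made up 4.604% of all 2802 LM8 substitutions (129). The MBT2 list had no record at position 1775. Its nearest record lay in the same ribosomal RNA at position 1487 with 2461 reads, but reads at an unlisted position are not given in the lists, so no upper limit for MBT2 could be set.

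The other record in the 16S ribosomal RNA was an A added to a run of 7 at position 1487, base 394 of the transcript, listed in MBT2 only. It was in 9 of 1140 reads in library 1 (0.789%) and 23 of 1321 in library 2 (1.74%), together 1.30% of 2461 reads (0.891 to 1.83). Library 2 was 2.21 times library 1. This difference did not pass the threshold over the whole MBT2 list (Fisher's exact test, unadjusted p = 0.0484, Benjamini-Hochberg adjusted p = 1).

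**Figure D1:**
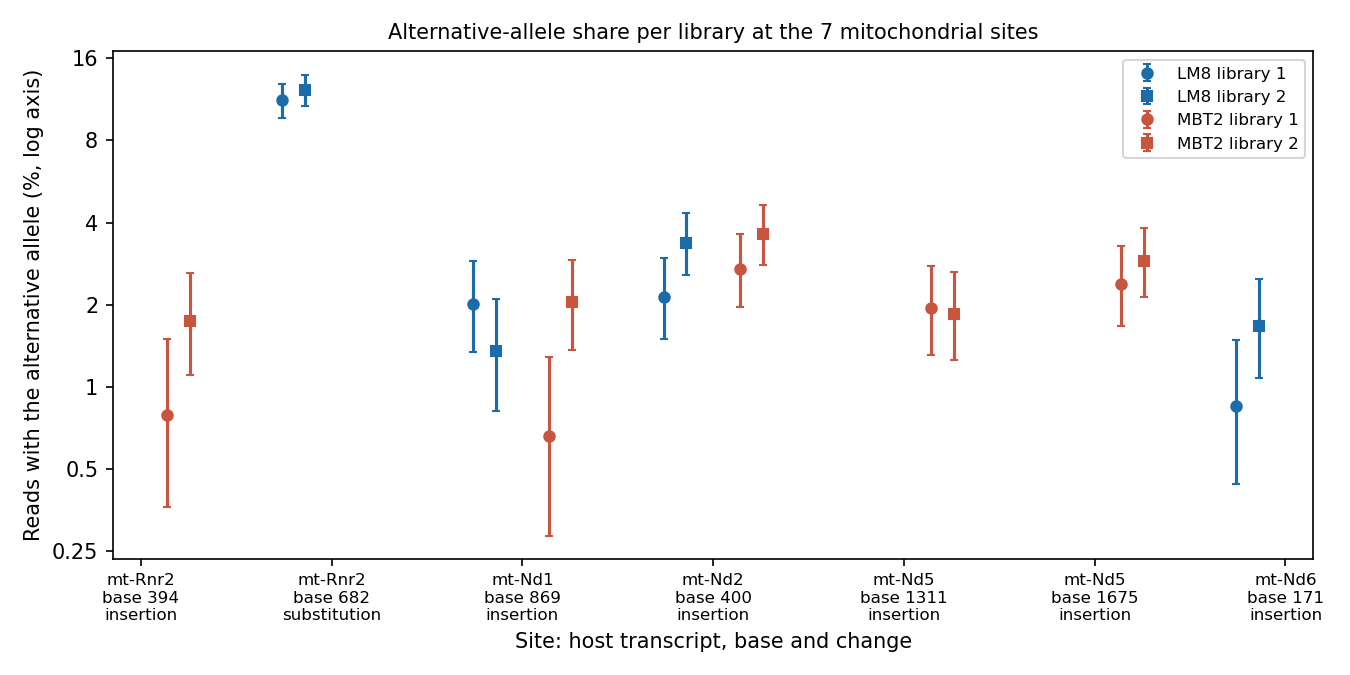
Share of reads with the alternative allele (percent, log axis) in each library at the 7 sites, named by host transcript, base number in it and kind of change; circles are library 1, squares library 2, and bars are exact binomial 95% intervals. The mt-Rnr2 substitution of LM8 stands at 11.2% and 12.25%, above every insertion, and a line without points has no record at that site.

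The insertions listed in both lines were in mt-Nd1 and mt-Nd2. These genes encode 2 of the mitochondrial subunits of complex I, the first enzyme of the respiratory chain. The mt-Nd1 insertion added an A to a run of 6 at position 3619, base 869 of 957 (ENSMUST00000082392), 86 bases before mt-Ti. LM8 had it in 28 of 1398 reads (2.003%) and 19 of 1409 (1.35%). MBT2 had it in 8 of 1218 reads (0.657%) and 29 of 1424 (2.04%). Both the lowest and the highest of the 4 shares were in MBT2, so the lines overlapped. The MBT2 duplicates differed 3.10-fold there, the widest gap of the 9 records, with an unadjusted p of 0.00251 in Fisher's exact test and a Benjamini-Hochberg adjusted p of 1.

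The mt-Nd2 insertion also added an A to a run of 6, at position 4313, base 400 of 1038 (ENSMUST00000082396). It was annotated as 472 bases upstream of mt-Tq, which is on the minus strand. LM8 had it in 35 of 1637 reads (2.14%) and 57 of 1692 (3.37%). MBT2 had it in 42 of 1550 reads (2.71%) and 61 of 1677 (3.64%). Here too the shares of the lines overlapped. The duplicates of LM8 differed 1.58-fold and those of MBT2 1.34-fold, which did not pass the threshold (Fisher's exact test, unadjusted p = 0.0342 and 0.160, both adjusted p = 1).

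Neither shared insertion differed between the lines past the threshold. For mt-Nd1 the summed shares were 1.67% of 2807 reads in LM8 (1.23 to 2.22) and 1.40% of 2642 in MBT2 (0.988 to 1.93). The ratio of MBT2 to LM8 was 0.836 (0.545 to 1.28), and Fisher's exact test over summed reads gave an unadjusted p of 0.442 and a Benjamini-Hochberg adjusted p of 1. For mt-Nd2 they were 2.76% of 3329 reads in LM8 (2.23 to 3.38) and 3.19% of 3227 in MBT2 (2.61 to 3.86). The ratio was 1.15 (0.876 to 1.52) with an unadjusted p of 0.310 and an adjusted p of 0.933 in the same exact test. The intervals allow MBT2 to be as low as 0.545 times LM8 in mt-Nd1 and as high as 1.52 times LM8 in mt-Nd2, so the p-values do not show that the lines are alike. Of the 1261 records listed in both lines, 92 passed this test (7.30%), against 0 of these 2, and 172 had an unadjusted p under 0.05 (13.6%), again against 0 of 2 with both libraries of each line. The lines' library shares did not overlap at 477 (37.8%), against 0 of 2. The test compares pools of reads and not repeated cultures, and with 2 libraries against 2 an exact permutation test cannot give a two-sided p below 0.333. Leaving out 1 library turned the direction in both genes or widened the gap. The mt-Nd1 ratio became 1.04 without LM8 library 1 and 1.22 without MBT2 library 1, and the mt-Nd2 ratio became 0.947 without LM8 library 1 and 0.980 without MBT2 library 2. The mt-Nd1 ratio became 0.392 without MBT2 library 2 (exact test, unadjusted p = 0.0112, adjusted p = 0.150), and the mt-Nd2 ratio became 1.49 without LM8 library 2 (exact test, unadjusted p = 0.0358, adjusted p = 0.342).

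The 3 insertions furthest from the tRNA named lay in the region of mt-Nd5 and mt-Nd6, also complex I subunit genes, and all were annotated as upstream of mt-Tt. In mt-Nd5 (ENSMUST00000082418, 1824 bases), MBT2 alone had a C added to a run of 7 at position 13052, base 1311. It was in 29 of 1496 reads (1.94%) and 30 of 1623 (1.85%), the closest duplicates among the 8 insertion records, and in 1.89% of 3119 reads in all (1.44 to 2.43). MBT2 alone also had an A added to a run of 6 at position 13416, base 1675. It was in 36 of 1513 reads (2.38%) and 47 of 1623 (2.90%), together 2.65% of 3136 reads (2.11 to 3.27). In LM8 alone, an A was added to a run of 7 at position 13900. It was in 12 of 1413 reads (0.849%) and 24 of 1436 (1.67%), together 1.26% of 2849 reads (0.887 to 1.75), a 1.97-fold gap with an unadjusted p of 0.0639 and a Benjamini-Hochberg adjusted p of 1 in Fisher's exact test.

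Between duplicates, 3 of the 9 records had an unadjusted p under 0.05 and 0 an adjusted one. Over the whole lists, Fisher's exact test gave an unadjusted p under 0.05 at 212 of 5445 LM8 records (3.89%) and 239 of 6361 MBT2 records (3.76%). After Benjamini-Hochberg adjustment it gave 0 in either list (0%). The median depth was 124 reads in the LM8 list and 141 in the MBT2 list, against 2461 to 3329 at the mitochondrial records. Unadjusted calls were not compared at matched depth, so these counts do not show that mitochondrial sites varied more between duplicates.

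The site at position 13900 lies within mt-Nd6 (ENSMUST00000082419, 519 bases, base 171), but most of its reads came from RNA of the opposite strand. In these directional libraries the orientation of a read pair tells which strand the RNA was copied from. At nuclear exon substitutions, 98.5% of LM8 and 99.1% of MBT2 reads in plus-strand genes had the first orientation, in which read 2 aligns forward, against 0.481% and 0.261% in minus-strand genes. At position 13900, 1895 LM8 reads had that orientation and 173 the other. Of these oriented reads, 8.37% (7.21 to 9.64) came from minus-strand RNA, the strand of mt-Nd6, and 91.6% from plus-strand RNA. The minus-strand share was 8.39% and 8.34% in the 2 libraries. In mammals the mt-Nd5 messenger RNA is known to run on opposite mt-Nd6. The insertion itself was in 21 of the 1895 plus-strand reads (1.11%, 0.687 to 1.69). It was also in 1 of the 173 minus-strand reads (0.578%, 0.0146 to 3.18). These intervals overlapped, and the difference was not tested. The strand counts leave out reads without an assigned orientation, which were a larger part of the reads here than at any other mitochondrial record. Over all 2849 reads at the site, 36 carried the insertion.

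At the mt-Nd5 sites the mirror image was seen, with a minority of minus-strand reads in a plus-strand gene. They made up 5.63% of oriented MBT2 reads at position 13052 (4.83 to 6.51) and 6.57% at position 13416 (5.72 to 7.50). At the mt-Rnr2, mt-Nd1 and mt-Nd2 sites they made up 0.0653% to 0.940%. None of the 11 to 26 minus-strand reads at the insertions in these 3 genes carried the added base. At both mt-Nd5 sites, reads assigned to each strand carried the insertions. Whether the added base was in the RNA itself was not tested. Some reads may be assigned wrongly, since 99.1% and not all MBT2 reads in nuclear plus-strand genes had the first orientation. At position 13052 the insertion was in 3 of 170 minus-strand reads (1.76%, 0.365 to 5.07) and 55 of 2852 plus-strand reads (1.93%, 1.46 to 2.50). At position 13416 the insertion was in 7 of 201 minus-strand reads (3.48%, 1.41 to 7.04) and 71 of 2859 plus-strand reads (2.48%, 1.94 to 3.12). The shares of the strands had overlapping intervals, and their difference was not tested.

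**Figure D2:**
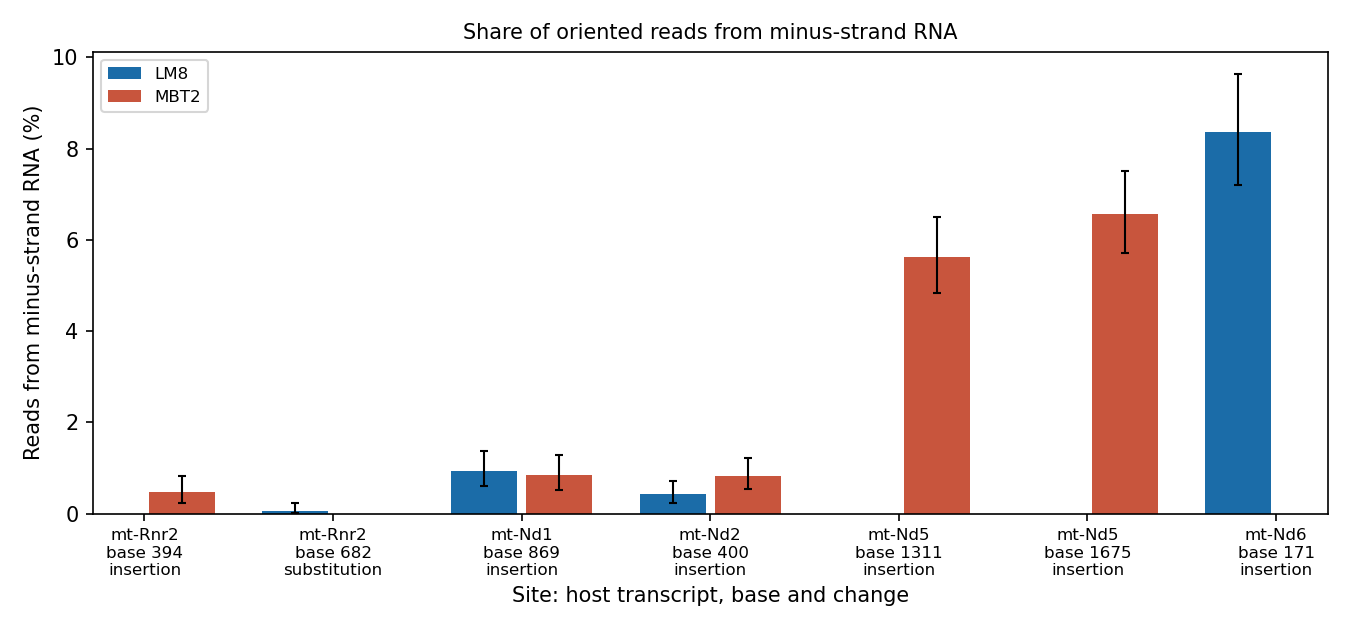
Percent of oriented reads that came from minus-strand RNA at each site, both libraries of a line summed, with exact binomial 95% intervals; a missing bar means that the line has no record there. The mt-Nd5 and mt-Nd6 sites lie between 5.63% and 8.37%, the others at or below 0.940%.

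Not every run of this kind carried a listed insertion. The 13 protein genes and 2 ribosomal RNA genes hold 19 runs of 6 or 7 identical bases, in 8 of the genes, and 6 of the runs had an insertion in at least 1 list (3 in LM8, 5 in MBT2, 2 in both). Read on the plus strand, 15 of these runs are A, 3 are C and 1 is T. Insertions were listed at 5 of the A runs and 1 of the C runs. In mt-Rnr2, 1 of 4 runs had an insertion, while the 2 runs of mt-Nd4, a further complex I gene, and the single runs of mt-Co1 and mt-Cytb, genes of complexes IV and III, had none. The 8-base A run of mt-Nd2 had none in either list. The same held for the 2 runs of 6 or more bases inside tRNA genes, in mt-Tr and mt-Th. The caller's filter for repeat slippage acts on repeats of at least 8 bases, per the file headers. How many reads covered runs without a record is not in the lists, so an unlisted run cannot be called free of insertions.

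**Figure D3:**
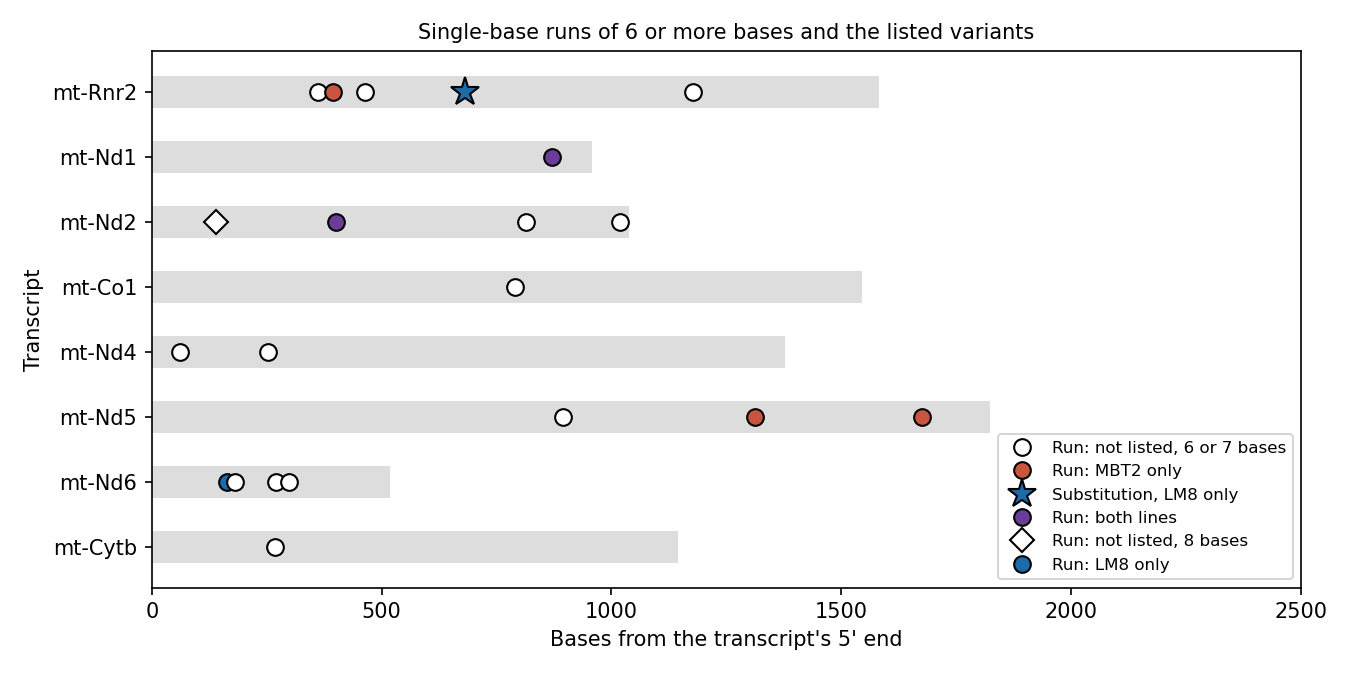
Single-base runs of 6 or more bases along the ribosomal RNA and protein gene transcripts that hold any (grey bars, bases from the 5′ end). Runs are coloured by the list with an insertion there, and the star is the mt-Rnr2 substitution. The tRNA genes are not drawn. Of the 19 runs of 6 or 7 bases, 6 are coloured.

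The mitochondrial insertions were of the same kind as most nuclear ones. Of all single-base insertions, 91.5% of 638 in LM8 and 91.4% of 767 in MBT2 lay in runs of 6 or 7 bases, and 6 in each list in longer runs. Most added A or T, with C or G added in 6 LM8 and 5 MBT2 records, the mt-Nd5 record at position 13052 among the latter. Among nuclear insertions in such runs with at least 1000 reads, LM8 had 35 with a median share of 1.85% (0.965 to 8.16) and MBT2 had 40 with a median of 2.16% (1.13 to 7.93). All 8 mitochondrial insertion records fell within these ranges. In LM8, 8 of the 35 were above the mt-Nd2 insertion, 20 above that in mt-Nd1 and 31 above that at position 13900. In MBT2, 6 of the 40 were above the mt-Nd2 insertion and 13 and 25 above those of mt-Nd5 at positions 13416 and 13052. There, 37 of the 40 were above each of the insertions in mt-Nd1 and mt-Rnr2. Listed nuclear insertions in such runs had higher shares when all depths were taken, with medians of 4.08% in LM8 and 3.96% in MBT2 at median depths of 227 and 243.5 reads. The lowest nuclear shares of each line were at sites with at least 1000 reads, and the mitochondrial records had 2461 to 3329 reads.

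**Figure D4:**
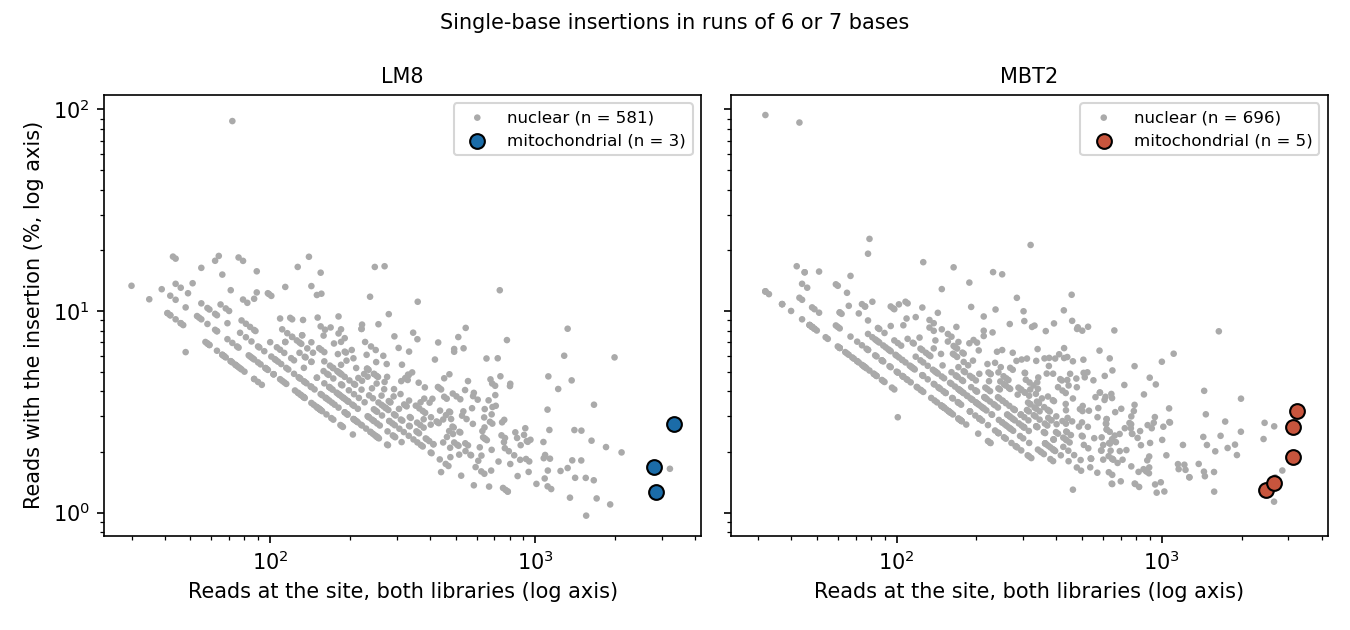
Share of reads with a single-base insertion in a run of 6 or 7 bases against reads at the site (both axes log), for nuclear (grey) and mitochondrial records of each line. The mitochondrial records, at 2461 to 3329 reads and 1.26% to 3.19%, lie at the deep end of the nuclear cloud.

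Of the mitochondrial insertions, 2 of 3 in LM8 and 2 of 5 in MBT2 were in both lists. For all insertions in runs of 6 or 7 bases the shares were 41.1% in LM8 and 34.2% in MBT2 (240 shared). The mt-Rnr2 substitution was not shared, as was the case for all but 8.21% of LM8 substitutions. Matching by position with any alternative base gave the same 2 shared sites. Records with more than 1 alternative base were removed by the caller's filter, per the file headers. A site read as several different bases, as happens at some modified RNA bases, would thus not be listed, and whether any of the 7 sites reflects a modified base or a change of the mitochondrial DNA was not tested.

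In the protein genes the insertions would shift the reading frame, which the annotation did not report. All 9 records had the lowest impact class and an upstream effect. The frame was followed through the transcripts with the vertebrate mitochondrial code, as a computation only, since no protein was measured. In mt-Nd2 the shifted frame reached a stop at codon 165 of 346, and in mt-Nd5 at codon 444 of 608 for the C insertion and at codon 582 for the A insertion. In mt-Nd6 it would reach one at codon 61 of 173. That insertion was in 1 of the 173 oriented minus-strand reads (0.578%, 0.0146 to 3.18). In mt-Nd1, where the run starts in codon 290 of 319, no stop was met before the end of the transcript.

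A list of 34 nuclear genes was drawn up for the maturation and charging of mitochondrial tRNAs. Whether each of them, such as Rpusd3 and Trub2, acts on tRNAs was not checked. Of the 34, 11 had a listed variant in LM8 and 11 in MBT2 (32.4% in each). Of all 21924 protein-coding gene symbols of GENCODE M21, expressed or not, 14.6% had one in LM8 and 16.4% in MBT2. Protein-altering substitutions were found in 2 of the 34 in LM8 (5.88%, against 2.77% of all) and in 1 in MBT2 (2.94%, against 3.33% of all). The list was not matched to other genes on expression, and no test was made. In MBT2, Hsd17b10, a subunit of mitochondrial RNase P and of its tRNA methyltransferase, had I241T in 8 of 243 reads (3.29%, 1.43 to 6.38). Library 1 had 4.55% and library 2 had 2.26%. In LM8, the pseudouridine synthase gene Pus1 had A421T in 4 of 182 reads (2.198%, 0.602 to 5.53). In the same line Trmu, which thiolates tRNA anticodons, had L363P in 2 of 48 reads (4.17%, 0.509 to 14.3), both in library 2. Trmt10c, the methyltransferase of the same complex, had a 3′ UTR substitution in LM8 in 5 of 151 reads (3.31%, 1.08 to 7.56) and no record in MBT2. Insertions or deletions annotated as frameshifts or splice site changes numbered 6 in 5 of the genes in LM8 and 4 in 4 genes in MBT2. How many of all genes had such a record was not counted, so these numbers do not set the listed genes apart. Elac2, the gene of the enzyme that cuts the 3′ end of tRNAs, had the same long deletion in both lines, at 2.0% of reads in LM8 and 3.07% in MBT2. Rpusd3 also had the same long deletion in both, at 90.8% and 83.8%. A long deletion in Ears2, which charges the glutamate tRNA, was in 92.2% of MBT2 reads. Splice site insertions were in 94.1% of reads in Elac2, 91.2% in Trmt2b, 85.4% in Trnt1 and 82.2% in Trub2 in LM8, and in 83.1% in Trit1 in MBT2. Whether these are changes of the genes in the lines was not tested.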

How the data were processed

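The deposited tables are 1 variant list per cell line (variant call format 4.2) with reads per allele, per read orientation and per alignment direction for each library. The duplicates of each line went through 1 joint call with Mutect 2.2 and were filtered with GATK 4.1.5.0 and annotated with SnpEff 5.1d on GRCm39 with database release 105, per the file headers. The submitters' processing notes name bcl2fastq 2.17.1.14, cutadapt 1.9.1, STAR 2.7.9a and GATK 4.3.0. The filters allowed 1 alternative allele and 2 events per region and ran outside mitochondrial mode, per the file headers. The settings of the calling step are not given in the sources used here, so depth was not read as an expression level.

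Alternative-allele shares were computed as alternative over reference plus alternative reads, with exact Clopper-Pearson 95% intervals. Because reads of amplified libraries can be copies of 1 molecule, these intervals describe counting error and nothing else. Ratio intervals are log-normal approximations. Lines were compared at all 1261 shared records and duplicates at all records of a list, by two-sided Fisher's exact tests with Benjamini-Hochberg adjustment and a threshold of 0.05. Tested on simulated data for the line comparison, with the odds of 200 of 1261 records changed 4-fold, the test called 121 of the changed and 5 of the 1061 unchanged records. The simulated libraries of a line shared 1 fraction per record, so false calls under a spread between cultures were not measured. Changes smaller than 4-fold were not simulated. The replicate number pairs nothing in the labels, and its block was tried as an alternative.

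GENCODE M21 is of build GRCm38, so its mitochondrial transcripts were used only after a check. The tRNA ends that follow from the deposited distances matched at 7 of 7 sites, the reference base at 7 of 7 and the repeat length at 6 of 6. Every member record is named. Members and gene lists were chosen with earlier results of these data known. The computations ran in Python 3.11.15 with scipy 1.17.1 for the tests, pandas 2.3.3 and numpy 2.4.6 for the tables, and matplotlib 3.10.9 for the plots.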

Additional observations from a re-analysis of the deposited data

How the results depend on the processing

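Counting only records inside a tRNA gene left 0 in LM8 and 0 in MBT2, against 4 and 5 by gene symbol. Of the 1261 records in both lists, 92 differed between the lines, 92 with the replicate number as a block and 92 of the 910 with at least 100 reads in each line. The number was 13 of 230 for substitutions alone, where fewer records were tested, and 54 to 73 with 1 library left out, where fewer reads were tested. An exact test with the replicate block gave ratios of MBT2 to LM8 of 0.836 for mt-Nd1 (adjusted p = 1) and 1.15 for mt-Nd2 (adjusted p = 0.940), and it changed no call of these. Same-numbered libraries of the lines did not deviate together, with a correlation of -0.0200 over records. With 1 library left out, the ratio ran from 0.392 to 1.22 in mt-Nd1 and from 0.947 to 1.49 in mt-Nd2, with reversals at 1.04 and 1.22 and at 0.947 and 0.980, and adjusted p from 0.150 to 1. None of the 9 shares moved by over 1.5 times with the mean of library shares, the caller's own fraction, plus-strand reads alone or library 2 alone. With library 1 alone 2 did, both in MBT2, from 1.40% to 0.657% in mt-Nd1 and from 1.30% to 0.789% in mt-Rnr2. Minus-strand reads alone, which number 2 to 201 per record, moved 7. Duplicates differed at 0 records under each filter tried, and the lowest adjusted p of a mitochondrial record was 0.764. Shares below about 1% rest on 8 to 12 alternative reads per library.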

Other observations

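The mt-Nd1 insertion lay 88 bases before the end of its transcript, and nearly all reads there aligned in the reverse direction. Forward reads made up 2.43% of reference reads in LM8 and 2.53% in MBT2, against 38.5% to 54.6% at the other 7 records. The insertion was in 3 forward and 44 reverse reads in LM8 and in 2 forward and 35 reverse reads in MBT2. The caller's score against strand bias was lowest at these records, at 58 in LM8 and 43 in MBT2.

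The insertion at position 13900 was the only mitochondrial record that the caller counted with a further event on the same haplotype (2 events). Its phase set starts at position 13898, where the LM8 list holds no record. At the mt-Rnr2 substitution, fragments with the alternative base had a median length of 299 bases against 281 for the others, while at all 8 insertion records fragments with the inserted base had the shorter median.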
